A study of Homo sapiens with 9 samples.

Results

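The genes described here make amino acids, carry them across membranes, or belong to the stress response run by the transcription factor ATF4. The list holds 35 genes, chosen by name with earlier results of these data known. It has 7 transcriptional regulators, 4 stress effectors, 8 enzymes of serine synthesis and folate-linked carbon transfer, 8 enzymes of other amino acids, and 8 transporters. Each gene was represented by the brightest of the probe sets annotated to that gene alone. GPT2, the mitochondrial alanine aminotransferase, had no such probe set. MTHFD1L, a mitochondrial formate-producing enzyme, fell below the filter on low signals, with means of 6.04, 10.1 and 5.08 on the arrays labelled ERBB2, the EGF arrays and the vector arrays. That left 33 genes tested, among 13723 genes tested in all.

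The samples were MCF10A cells, an immortalized human mammary epithelial line that forms no tumours and needs added EGF to grow. In the ERBB2 group the cells carried a pBabe retrovirus encoding ErbB2, a receptor tyrosine kinase. In the EGF group they carried the empty pBabe virus and received EGF at 50 ng/ml for 2 h before harvest, and in the vector group they carried the empty virus alone. All 3 groups were kept after infection in medium with 2% horse serum and no EGF, and before that in 5% horse serum with 20 ng/ml EGF, hydrocortisone, cholera toxin and insulin. Each group had 3 arrays, described as biological replicates of a single cell line. Whether each replicate was infected separately is not stated, so the p-values reflect only how far these samples spread, which may be technical. RNA came from whole cultures, so fewer cells of a type and less RNA per cell cannot be told apart.

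When amino acids run short or misfolded protein builds up in the endoplasmic reticulum, kinases such as GCN2 and PERK phosphorylate the initiation factor eIF2. General translation falls, while the ATF4 mRNA is translated more because of short reading frames ahead of its coding sequence. ATF4 protein then pairs with C/EBP-family proteins at composite DNA elements and raises transcription of amino acid enzymes, transporters and feedback regulators. Growth factor receptors reach the same genes through mTORC1, which also promotes ATF4 translation, and through MYC. ATF4 is thus controlled largely at the level of protein, which arrays do not measure.

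The arrays were examined before the genes. Arrays of 1 group correlated at 0.971 to 0.982 in log2 signal, and arrays of different groups at 0.912 to 0.957. The labels state neither the species nor the extent of the introduced ErbB2 sequence, so the ERBB2 probe sets may not read it and the label could not be checked by its transcript. The brightest of them averaged 98.8 on the arrays labelled ERBB2 and 174.0 on vector arrays. Its change of -0.71 on the log2 scale (limma adjusted p = 0.006756) was lost without vector replicate 2 (-0.55, adjusted p = 0.05061) or ERBB2 replicate 2 (-0.54, adjusted p = 0.05173), and turned to 0.09 when all ERBB2 probe sets were averaged (adjusted p = 0.6686, the highest of 19 alternatives, with 0.001085 the lowest). The group is therefore called "labelled ERBB2" throughout. DUSP6, an ERK-induced phosphatase, averaged 963 on those arrays, 2789 on EGF arrays and 9.42 on vector arrays, and EGFR averaged 975, 1873 and 1835. The 5' to 3' signal ratio of the ACTB control, a measure of RNA and labelling quality, was 0.737 ± 0.051 on arrays labelled ERBB2, 0.444 ± 0.063 on EGF arrays and 0.379 ± 0.055 on vector arrays (SD, n = 3 each). Signal of the 18S ribosomal RNA control was 12590 ± 823, 2868 ± 673 and 3380 ± 1330 in that order. These differences run with every ERBB2 comparison below, and their part in the results was not tested. Of 8 markers of basal mammary epithelium, 6 had a probe set, and their summed signal was 9470 to 10210 on arrays labelled ERBB2, 14610 to 17390 on EGF arrays and 18370 to 20900 on vector arrays. Fibroblast markers, all 7 with a probe set and 3 past the filter, summed to 399 to 578, 511 to 565 and 1372 to 1519. Markers of blood and endothelial cells summed to 259 to 330, 253 to 293 and 249 to 266, with 7 of 9 measured and 3 past the filter. Their part in the results was not tested either.

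The promoters were searched for the element through which ATF4 is known to act, which a minority of the members held, and its surroundings are shown for 8 of the members with a match. The RefSeq promoter table (build GRCh38.p14, from 250 bases before to 50 bases after each annotated start) held windows for 29 of the 35 members. It held none for SLC7A11, NUPR1, PYCR1, GPT2, PSPH and SHMT2. The letters TGATGNAA, the core of the C/EBP-ATF element, were searched on both strands. They occurred in at least 1 window of 10 of the 29 members (34.5%), against 4.46% of 27305 genes in the table. Counted by window, the shares were 24.5% of 49 member windows, several of which overlap, and 3.62% of 35116. The list was chosen by name to include genes of the ATF4 response, so these shares only describe it. Below, each stretch is written 5' to 3' on the gene's own strand with the element in capitals. The element reads on the opposite strand in GOT1, SLC1A4 and CHAC1.
ASNS, chr7:97872449-97872496, minus strand: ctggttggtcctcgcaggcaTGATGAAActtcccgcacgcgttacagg
GOT1, chr10:99430795-99430842, minus strand: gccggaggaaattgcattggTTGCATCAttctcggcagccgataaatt
SLC1A4, chr2:64989372-64989419, plus strand: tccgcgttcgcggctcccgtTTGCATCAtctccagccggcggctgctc
SLC7A1, chr13:29595659-29595701, minus strand: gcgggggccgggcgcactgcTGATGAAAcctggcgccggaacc
CEBPG, chr19:33374051-33374098, plus strand: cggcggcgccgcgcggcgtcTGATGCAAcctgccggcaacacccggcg
CHAC1, chr15:40953242-40953289, plus strand: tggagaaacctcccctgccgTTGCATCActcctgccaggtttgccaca
SLC1A5, chr19:46784884-46784931, minus strand: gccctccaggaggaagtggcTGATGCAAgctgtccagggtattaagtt
SLC38A1, chr12:46266493-46266540, minus strand: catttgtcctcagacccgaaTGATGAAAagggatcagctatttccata

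The element began 68 bases before the start in ASNS, 198 before in GOT1, 7 before in SLC1A4 and 7 after in SLC7A1. It began 42 bases before the start in CEBPG, 209 in CHAC1, 97 in SLC1A5 and 4 in SLC38A1. Each distance is from the annotated start of the window that held the match. ASNS, CEBPG, SLC1A4, SLC1A5 and SLC38A1 also had windows at other starts with no match. In CEBPG, SLC1A4, SLC1A5 and SLC38A1 the match lay only in the window farthest downstream. SLC3A2 and MTHFD1L held the other matches. The E-box CACGTG, a palindrome bound by MYC and related factors, lay in windows of 6 of the 29 members (20.7%), against 8.77% of all genes in the table. These were ALDH18A1, ATF4, MTHFD1, MTHFD1L, SLC1A5 and SLC7A5. No match overlapped a match of the other kind. A match describes letters, and whether a factor was bound there was not measured.

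**Figure D1:**
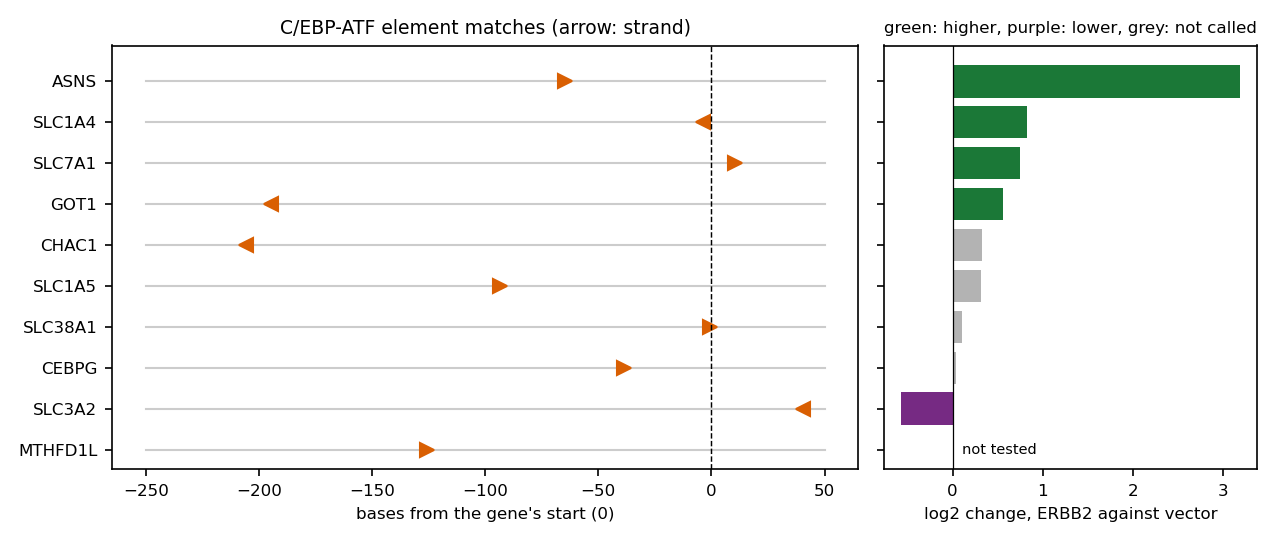
Left, positions of the C/EBP-ATF element in the promoter windows of 10 members, in bases from the annotated start, with the arrow giving the strand (for genes with several windows, 1 window is drawn). Right, the log2 change of each gene in arrays labelled ERBB2 against vector arrays, from 3.19 for ASNS to -0.58 for SLC3A2. Of the genes shown, 4 were called higher, 1 lower and 4 neither way, and MTHFD1L was not tested. Of all genes tested, 20.8% were higher and 25.1% lower, and of the 33 members tested 48.5% were higher and 27.3% lower.

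The first comparison asked how the amino acid and ATF4 genes differ between arrays labelled ERBB2 and vector arrays, both without EGF. Many of the enzymes were higher in the arrays labelled ERBB2, among them ASNS for asparagine, PHGDH and PSAT1 for serine, ALDH18A1 and PYCR1 for proline, GOT1 and GOT2 for aspartate and CBS for cysteine, as was the cystine carrier SLC7A11. The serine enzymes PSPH and SHMT1 were called lower, but these calls were lost in 5 of 19 and 12 of 18 alternatives. CTH was not called, and several regulators and the large neutral amino acid transporter were lower. As the members were chosen with earlier results of these data known, the shares below only describe the list. At an adjusted p under 0.05, 16 of the 33 members were higher (48.5%), where 20.8% of all genes tested were higher. A further 9 members were lower (27.3%), where 25.1% of all genes were lower. The median log2 change was 0.33 over the members and -0.07 over all genes. Over probe sets, 38.7% were called in either direction. Changes of at least 2-fold were called for 7 members, 6 higher and 1 lower, where 6.30% of all genes were called higher and 7.13% lower by that much.

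The next comparison, EGF against vector, asked how the same genes stood after 2 h of EGF in cells with the empty virus. Here 10 of the 33 members were higher (30.3%), where 17.2% of all genes were, and 6 were lower (18.2%), where 19.0% of all genes were. The median change of the members was 0.03, that of all genes -0.10, and 28.8% of all probe sets were called. TRIB3 and STC2 rose over 2-fold, NUPR1 and DDIT3 fell over 2-fold, and changes of the enzymes were smaller. A direct comparison set the arrays labelled ERBB2 directly against the EGF arrays. There 15 members were higher (45.5%), where 12.8% of all genes were, and 3 were lower (9.09%), where 16.1% of all genes were. The medians were 0.24 and 0.01, and 23.8% of all probe sets were called. With each array scaled to an equal median this comparison gave 10 higher and 7 lower members. The comparisons share arrays, so their counts are not independent.

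**Figure D2:**
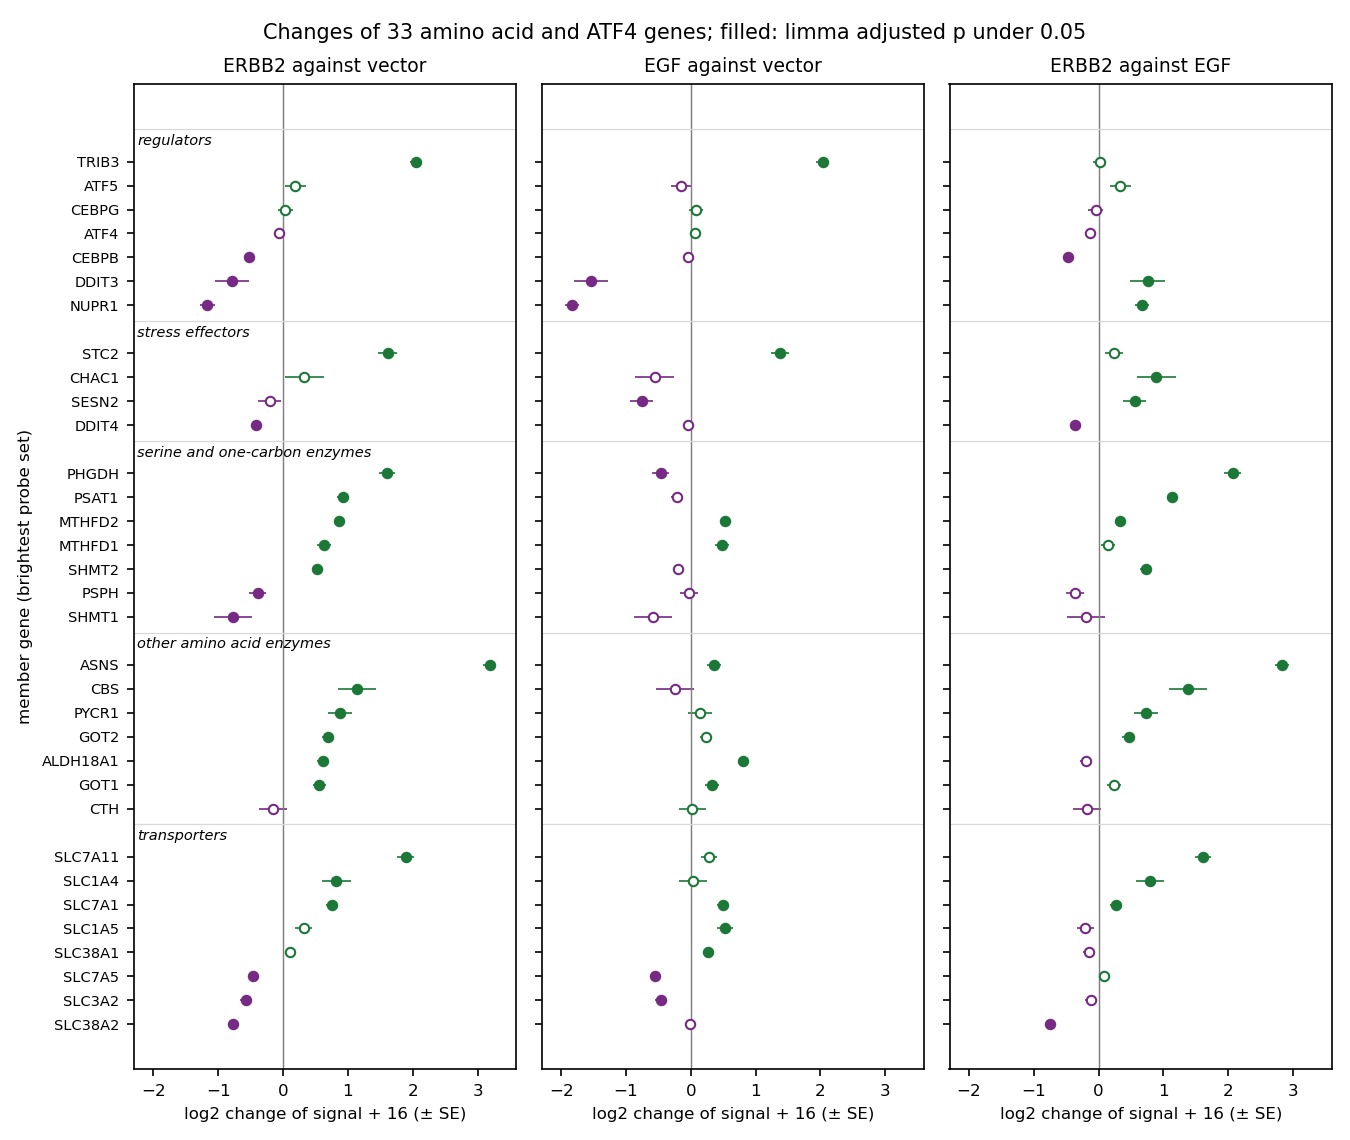
Log2 change of signal + 16 for the 33 tested members in the 3 comparisons, grouped by role, with the standard error as a bar; filled points passed the limma adjusted p of 0.05, green points are positive and purple points negative. ASNS lies farthest to the right in the panels against vector (3.19) and against EGF (2.82), TRIB3 lies near 2.05 in the first panel and 2.03 in the second, and the other regulators lie on both sides of 0 in every panel.

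**Figure D3:**
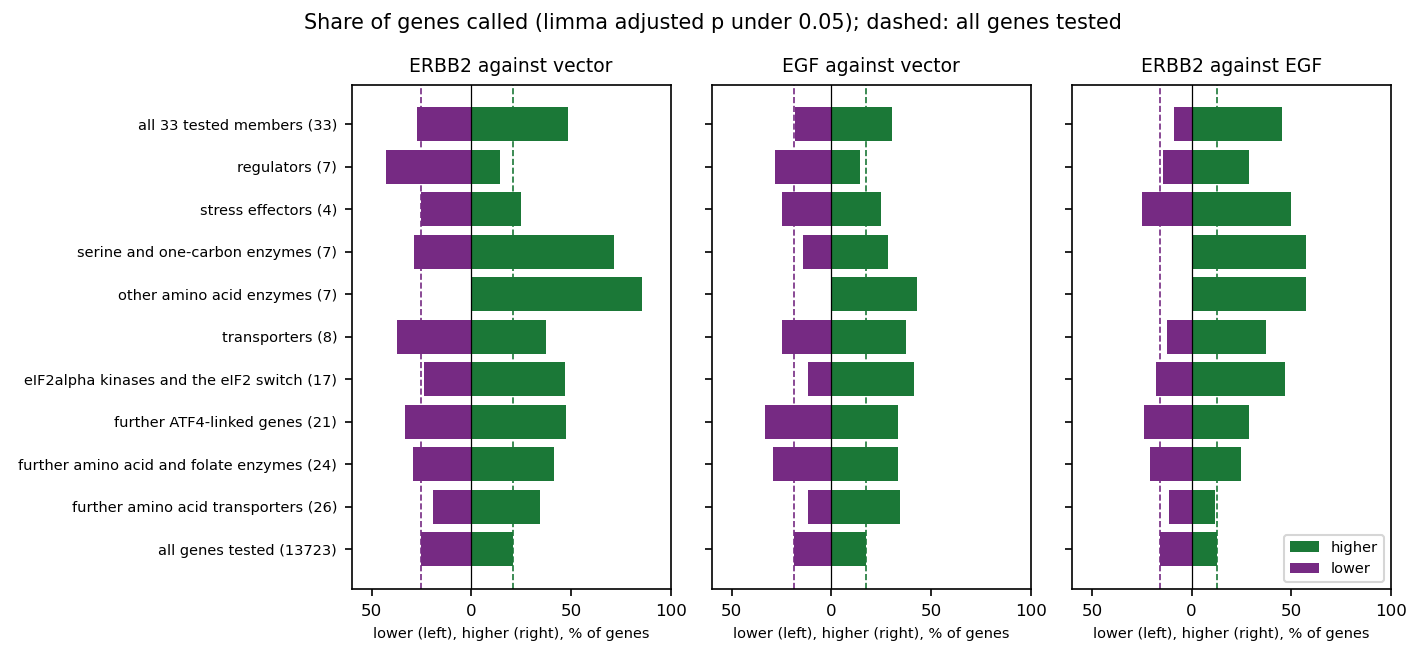
Percent of genes called higher (right, green) and lower (left, purple) for the members, for each role and for the lists of other pathway genes, with the number tested in brackets and dashed lines at the shares over all 13723 genes. Among the enzymes outside the serine group, 85.7% were higher and none of 7 lower in arrays labelled ERBB2 against vector, while 42.9% of the 7 regulators were lower. Of all genes tested, 20.8% were higher and 25.1% lower in that comparison.

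Among the regulators, the ATF4 mRNA itself was abundant and differed little. It read 4036, 4231 and 4068 on arrays labelled ERBB2, 4661, 4486 and 4314 on EGF arrays, and 4114, 4456 and 4329 on vector arrays. The vector arrays overlapped both other groups, while every array labelled ERBB2 was below every EGF array. The log2 changes were -0.06 ± 0.06 (SE) for ERBB2 against vector (limma adjusted p = 0.4711), 0.06 ± 0.06 for EGF against vector (0.5234) and -0.13 ± 0.06 for ERBB2 against EGF (0.1746). With equal array medians the last 2 were called, at 0.22 (adjusted p = 0.01434) and -0.24 (adjusted p = 0.01055), each the lowest p of 19 alternatives, with 0.7978 and 0.5626 the highest.

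TRIB3, a pseudokinase induced by ATF4 that feeds back on ATF4 and AKT, was the regulator with the largest rise. It read 838, 794 and 674 on arrays labelled ERBB2, 718, 785 and 764 on EGF arrays, and 163, 177 and 179 on vector arrays. Both sets of arrays lay far above vector and overlapped each other. The log2 change was 2.05 ± 0.10 for ERBB2 (limma adjusted p = 3.123e-12) and 2.03 ± 0.10 for EGF (1.152e-11), with a difference of 0.02 ± 0.10 between them (0.9236). A dimmer TRIB3 probe set gave 1.82, 1.25 and 0.57, all called, so the probe sets differ on whether ERBB2 and EGF arrays are apart.

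NUPR1, a small stress-induced chromatin protein, moved the other way. It read 644, 545 and 439 on arrays labelled ERBB2, 336, 321 and 334 on EGF arrays, and 1185, 1217 and 1268 on vector arrays. The 3 groups did not overlap, with EGF lowest. The changes were -1.17 ± 0.11 for ERBB2 against vector (limma adjusted p = 3.761e-08), -1.84 ± 0.11 for EGF against vector (1.826e-10) and 0.67 ± 0.11 for ERBB2 against EGF (0.0001044).

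DDIT3, also called CHOP, is the factor that ATF4 induces under lasting endoplasmic reticulum stress. It read 54.5, 37.2 and 77.9 on arrays labelled ERBB2, 9.52, 43.8 and 32.1 on EGF arrays, and 88.9, 108 and 122 on vector arrays. All arrays of both groups were below all vector arrays. The change was -1.54 ± 0.27 with EGF (limma adjusted p = 0.0001695) and -0.78 ± 0.27 in arrays labelled ERBB2 (0.02454). The second call was lost without vector replicate 2 (-0.77, adjusted p = 0.06138) or 3 (-0.69, 0.09204), or without ERBB2 replicate 1 (-0.78, 0.05397) or 2 (-0.58, 0.1315), and its adjusted p lay between 0.005429 and 0.1315 over 19 alternatives. It was also lost with a pseudocount of 1, with no filter and without the variance trend. The difference of ERBB2 from EGF arrays, 0.75 ± 0.27 (adjusted p = 0.0458), was lost in 15 of 19 alternatives. Without EGF replicate 1, the lowest array, it was 0.40 (0.2812), and without ERBB2 replicate 3 it was 0.55 (0.2099). It was also lost without ERBB2 replicate 1 (adjusted p = 0.09178), EGF replicate 3 (0.05315) or any vector replicate (0.0537, 0.05454 and 0.05535), and 0.01201 was the lowest adjusted p.

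Of the remaining regulators, CEBPB, a bZIP partner of ATF4, averaged 3007 ± 76 on arrays labelled ERBB2, 4199 ± 68 on EGF arrays and 4333 ± 302 on vector arrays (SD, n = 3 each). Its change was -0.52 ± 0.07 for ERBB2 against vector (limma adjusted p = 2.445e-06) and -0.48 ± 0.07 against EGF (1.848e-05), and it did not pass the test with EGF (-0.04). CEBPG, a dimerization partner that lacks an activation domain of its own, changed by 0.03 and 0.08 against vector and by -0.05 between ERBB2 and EGF, none called. Its dimmer probe set was called higher in arrays labelled ERBB2 (0.39, adjusted p = 0.008597). ATF5, a related factor also controlled in translation, changed by 0.19, -0.14 and 0.33, none called. Of the 7 regulators, 1 was higher (14.3%) and 3 lower (42.9%) in ERBB2 against vector, where 20.8% and 25.1% of all genes were. With EGF 1 was higher (14.3%) and 2 lower (28.6%), where 17.2% and 19.0% of all genes were. In ERBB2 against EGF 2 were higher (28.6%) and 1 lower (14.3%), where 12.8% and 16.1% of all genes were.

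**Figure D4:**
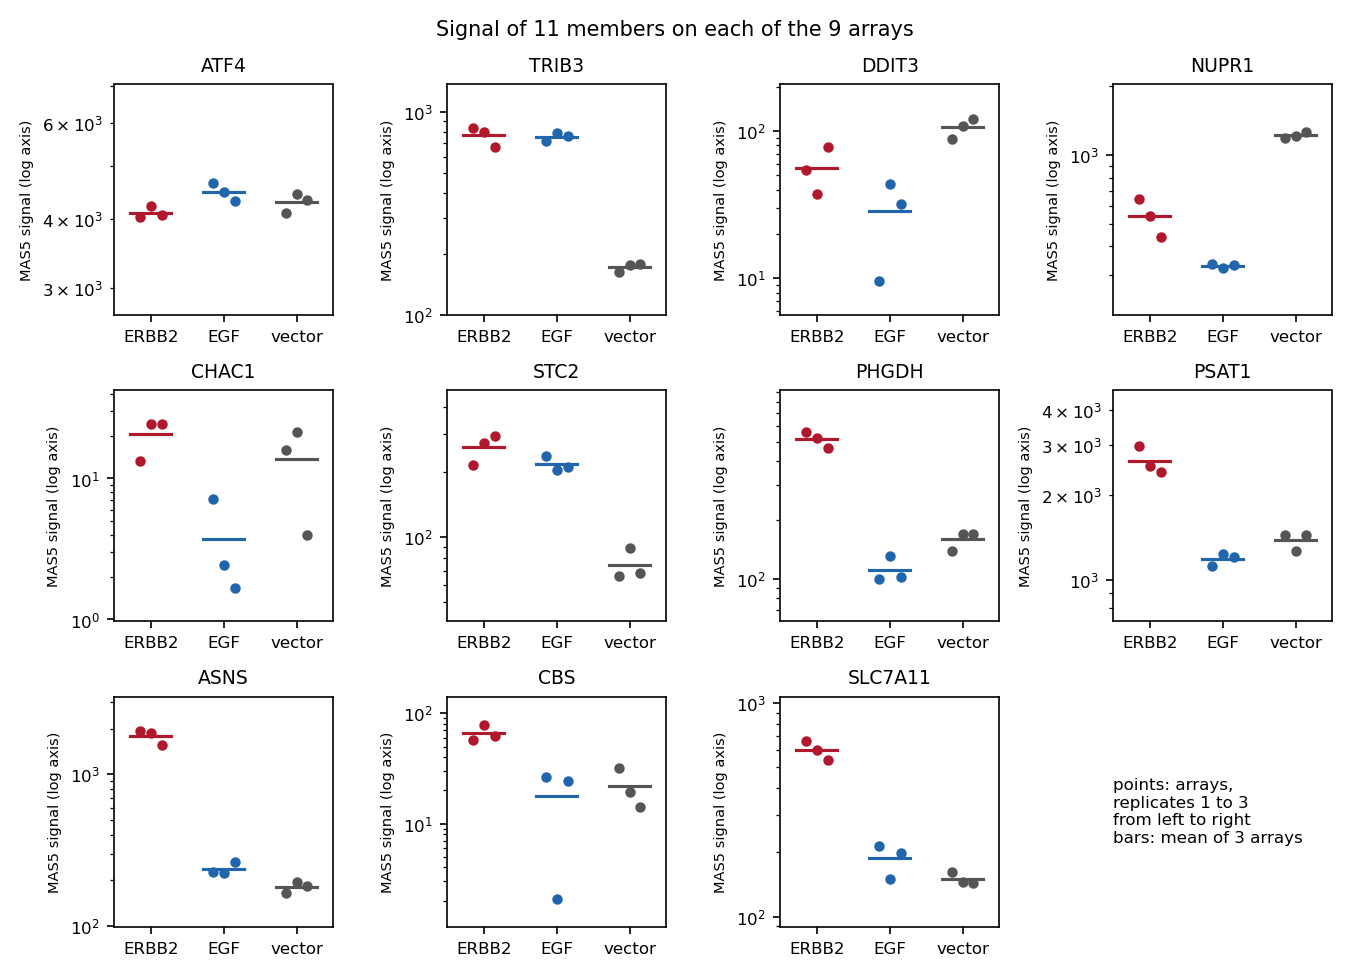
MAS5 signal on a log axis of 11 members on each of the 9 arrays, with arrays labelled ERBB2 in red, EGF arrays in blue and vector arrays in grey; points are arrays and bars the means of 3. ASNS lies between 1554 and 1923 on arrays labelled ERBB2 and between 166 and 263 on the other 6 arrays, while TRIB3 and STC2 are high in both ERBB2 and EGF arrays and ATF4 differs little.

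The stress effectors split. STC2, the secreted glycoprotein stanniocalcin, read 216, 273 and 294 on arrays labelled ERBB2, 238, 203 and 211 on EGF arrays, and 65.9, 89.4 and 68.1 on vector arrays. Both groups were above vector with no overlap, and they overlapped each other. The changes were 1.61 ± 0.14 for ERBB2 (limma adjusted p = 1.769e-08) and 1.37 ± 0.14 for EGF (3.643e-07), and the difference between them was 0.24 ± 0.14 (0.2575). CHAC1, which degrades glutathione, was dim: 13.2, 24.2 and 24.5 on arrays labelled ERBB2, 7.17, 2.43 and 1.66 on EGF arrays, and 16.02, 21.5 and 3.95 on vector arrays. Vector arrays overlapped both groups, and neither change against vector passed the test (0.33 ± 0.30, limma adjusted p = 0.4276, and -0.56 ± 0.30, 0.1871). Its difference between ERBB2 and EGF arrays was 0.89 ± 0.30 (adjusted p = 0.03787). EGF arrays averaged 3.75, below the filter value (10.6), so the size of this called difference depends on the pseudocount. That call was lost without ERBB2 replicate 2 (0.81, adjusted p = 0.1114) or 3 (0.81, 0.1122), or EGF replicate 2 (0.84, 0.09856) or 3 (0.81, 0.1176), and its adjusted p lay between 0.02596 and 0.1176 over 18 alternatives.

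DDIT4 and SESN2 both restrain mTORC1. DDIT4 averaged 3937 ± 69 on arrays labelled ERBB2, 5082 ± 113 on EGF arrays and 5260 ± 141 on vector arrays (SD, n = 3 each), a change of -0.42 ± 0.06 for ERBB2 (limma adjusted p = 1.25e-05) and -0.05 for EGF, which was not called. SESN2 averaged 77.4 ± 12.0, 47.5 ± 6.1 and 91.7 ± 13.1, and was called lower with EGF (-0.76 ± 0.17, adjusted p = 0.002211) but not in arrays labelled ERBB2 (-0.21). Against EGF, DDIT4 was lower in arrays labelled ERBB2 by -0.37 (adjusted p = 0.0001239) and SESN2 higher by 0.55 (adjusted p = 0.02416). A dimmer SESN2 probe set gave 0.13 for that difference (adjusted p = 0.7057), and averaging both gave 0.34 (adjusted p = 0.1065). The SESN2 difference was also lost without ERBB2 replicate 1 (0.48, adjusted p = 0.08734) or 3 (0.52, 0.0728), or EGF replicate 1 (0.50, 0.08368) or 2 (0.53, 0.06697), and its adjusted p lay between 0.01701 and 0.1065 over 19 alternatives.

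Serine is made from a glycolytic intermediate by PHGDH, PSAT1 and PSPH in turn, and serine hydroxymethyltransferases then pass its carbon to folate. PHGDH, the enzyme of the first step, read 559, 520 and 467 on arrays labelled ERBB2, 99.5, 132 and 103 on EGF arrays, and 139, 169 and 169 on vector arrays. The groups did not overlap, with ERBB2 highest and EGF lowest. The log2 change was 1.60 ± 0.13 for ERBB2 against vector (limma adjusted p = 5.001e-09), -0.46 ± 0.13 for EGF against vector (0.0101) and 2.07 ± 0.13 for ERBB2 against EGF (5.205e-10). The fall with EGF was not called with equal array medians (-0.30, adjusted p = 0.1075, the highest of 19 alternatives, with 0.003894 the lowest).

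PSAT1, the aminotransferase of the second step, read 2979, 2539 and 2417 on arrays labelled ERBB2, 1128, 1238 and 1207 on EGF arrays, and 1451, 1269 and 1448 on vector arrays. It showed the same order with no overlap. The changes were 0.92 ± 0.09 for ERBB2 against vector (limma adjusted p = 3.86e-08) and 1.14 ± 0.09 against EGF (7.682e-09), and with EGF it changed by -0.22 ± 0.09 (0.06556). The EGF change was called without vector replicate 2 (-0.28, adjusted p = 0.02894) or ERBB2 replicate 1 (-0.22, 0.0404), with adjusted p between 0.01535 and 0.7179 over 19 alternatives. A dimmer PSAT1 probe set changed by 1.61 in arrays labelled ERBB2 against vector and by 1.81 against EGF.

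PSPH, the phosphatase of the final step, did not follow them. It averaged 138 ± 23 on arrays labelled ERBB2, 181 ± 14 on EGF arrays and 184 ± 12 on vector arrays (SD, n = 3 each), and its change of -0.39 ± 0.13 in arrays labelled ERBB2 was called (limma adjusted p = 0.02645). The call was lost without vector replicate 2 (-0.39, adjusted p = 0.05549) or 3 (-0.35, 0.09297) or ERBB2 replicate 3 (-0.26, 0.1492), and the adjusted p lay between 0.01998 and 0.1492 over 19 alternatives. Equal array medians and a fit without the variance trend also lost the PSPH call. Its other 2 probe sets past the filter changed by -0.02 and -0.72, neither called. Against EGF the change was -0.36 (adjusted p = 0.05607), and it was called without ERBB2 replicate 1 (-0.42, adjusted p = 0.04914) or 2 (-0.44, 0.04513), with adjusted p between 0.01897 and 0.9076 over 19 alternatives.

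Of the mitochondrial folate enzymes, SHMT2 averaged 1911 ± 132 on arrays labelled ERBB2, 1146 ± 36 on EGF arrays and 1322 ± 134 on vector arrays, a change of 0.53 ± 0.08 for ERBB2 against vector (limma adjusted p = 3.543e-05) and 0.73 against EGF (1.973e-06). With EGF it changed by -0.20 (0.08547), which was called without vector replicate 1 (-0.28, adjusted p = 0.01967, the lowest of 19 alternatives, with 0.8106 the highest). For ERBB2 against vector and against EGF, a dimmer SHMT2 probe set gave 0.65 and 0.76, both called. Another gave 0.185 and 0.30, neither called. MTHFD2, the mitochondrial dehydrogenase of the pathway, averaged 1864 ± 89, 1473 ± 87 and 1014 ± 66, and was called higher in arrays labelled ERBB2 (0.87, 2.364e-08), with EGF (0.53, 2.903e-05) and in ERBB2 against EGF (0.34, 0.003216). The last was not called with equal array medians (0.23, adjusted p = 0.0567) or without the variance trend (adjusted p = 0.06212), and 0.0005307 was the lowest of 19 alternatives. The cytosolic MTHFD1 averaged 1364 ± 130, 1244 ± 217 and 877 ± 83 and was called higher against vector in both groups (0.63, 8.879e-05, and 0.49, 0.001756), but not with EGF when its probe sets were averaged (0.17, adjusted p = 0.2088, the highest of 19 alternatives, with 0.0001335 the lowest). SHMT1, the cytosolic hydroxymethyltransferase, was dim, at 6.60 ± 5.72, 9.92 ± 7.27 and 21.8 ± 1.8. Its means on arrays labelled ERBB2 and on EGF arrays were below the filter value (10.6), and only the vector mean was above it. The size of the SHMT1 change in arrays labelled ERBB2 thus depends on the pseudocount, and ran from -1.84 to -0.28 over the alternatives. Its change of -0.77 ± 0.29 in arrays labelled ERBB2 (limma adjusted p = 0.04395) was lost in 12 of 18 alternatives, among them without any 1 vector replicate (adjusted p = 0.1074, 0.08462 and 0.07962), ERBB2 replicate 1 (0.1061) or 3 (0.1278), or EGF replicate 3 (0.0567), and 0.02368 was the lowest adjusted p. Of 7 genes tested in this group, 5 were higher (71.4%) and 2 lower (28.6%) in ERBB2 against vector. Of all genes, 20.8% were higher and 25.1% lower there. With EGF 2 were higher (28.6%) and 1 lower (14.3%), where 17.2% and 19.0% of all genes were. In ERBB2 against EGF 4 were higher (57.1%) and none lower, where 12.8% and 16.1% of all genes were.

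ASNS, which makes asparagine from aspartate with nitrogen from glutamine, had the largest change of all members. It read 1923, 1875 and 1554 on arrays labelled ERBB2, 226, 224 and 263 on EGF arrays, and 166, 194 and 184 on vector arrays. Every array labelled ERBB2 was several times above every other array, and the EGF arrays lay just above the vector arrays. The log2 change was 3.19 ± 0.11 for ERBB2 against vector (limma adjusted p = 1.291e-14), 2.82 ± 0.11 for ERBB2 against EGF (2.396e-13) and 0.36 ± 0.11 for EGF against vector (0.01488). Among 13723 genes ordered by change from the highest, ASNS stood at rank 15 in ERBB2 against vector, 5 in ERBB2 against EGF and 2513 in EGF against vector. The change with EGF was not called once vector replicate 1 (0.30, adjusted p = 0.06105) or EGF replicate 3 (0.29, 0.08769) was left out, with adjusted p between 0.001783 and 0.08769 over 19 alternatives. A second ASNS probe set was below the filter, with means of 1.52, 0.778 and 2.45. As the gene with the largest change, its 250 bases ahead of the start are given whole, 5' to 3' on the minus strand (GRCh38.p14), with the C/EBP-ATF element in capitals.
ASNS, chr7:97872409-97872658: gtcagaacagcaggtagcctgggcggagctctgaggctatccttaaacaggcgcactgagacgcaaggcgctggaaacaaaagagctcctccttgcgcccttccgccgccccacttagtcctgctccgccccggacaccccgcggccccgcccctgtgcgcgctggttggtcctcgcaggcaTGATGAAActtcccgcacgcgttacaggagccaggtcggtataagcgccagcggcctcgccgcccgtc

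Apart from CTH, which was not called, and GPT2, which had no probe set, the other enzymes of this group were also higher in arrays labelled ERBB2 against vector, by less than ASNS. CBS, the first enzyme of transsulphuration, which leads from homocysteine to cysteine, read 56.9, 79.2 and 62.3 on arrays labelled ERBB2, 26.5, 2.05 and 24.4 on EGF arrays, and 31.7, 19.4 and 14.2 on vector arrays. The arrays labelled ERBB2 were above all others, and EGF and vector arrays overlapped. The changes were 1.14 ± 0.29 for ERBB2 against vector (limma adjusted p = 0.003923) and 1.38 ± 0.29 against EGF (0.001527), with -0.24 for EGF against vector, not called. The first call was lost with a pseudocount of 1 (adjusted p = 0.05796, the highest of 19 alternatives, with 0.0005278 the lowest). Against vector and against EGF, a dimmer CBS probe set gave 0.87 and 1.05, both called. Another gave -0.10 and 0.50, neither called. CTH, the next enzyme of that pathway, averaged 26.8 ± 4.9, 32.3 ± 4.5 and 31.4 ± 3.7 and was called in no comparison.

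Proline is built by ALDH18A1 and then PYCR1. PYCR1 averaged 165 ± 42 on arrays labelled ERBB2, 92.1 ± 22.4 on EGF arrays and 80.9 ± 12.0 on vector arrays (SD, n = 3 each), a change of 0.88 ± 0.19 for ERBB2 against vector (limma adjusted p = 0.0007387) and 0.73 against EGF (0.006159). ALDH18A1 averaged 772 ± 58, 883 ± 43 and 497 ± 30 and was called higher against vector in both groups, by 0.62 for ERBB2 (1.077e-05) and 0.81 for EGF (7.102e-07). A dimmer ALDH18A1 probe set gave 1.18 and 0.61, and only that probe set was called higher in ERBB2 against EGF (0.57, adjusted p = 0.0003033). The aspartate aminotransferases link glutamate to aspartate, the precursor of asparagine. The mitochondrial GOT2 averaged 1623 ± 132, 1175 ± 124 and 995.5 ± 109 and was higher in arrays labelled ERBB2 against vector (0.70, limma adjusted p = 5.95e-06) and against EGF (0.46, 0.001147). Its EGF change of 0.24 (0.07128) was called without replicate 2 of the vector arrays (0.32, adjusted p = 0.02113) or EGF replicate 1 (0.31, 0.03137), with adjusted p between 0.005491 and 0.3047 over 19 alternatives. The cytosolic GOT1 averaged 557 ± 43, 473 ± 63 and 372 ± 22 and was called higher against vector for ERBB2 (0.56, 0.0002281) and EGF (0.33, 0.0236). The EGF call of GOT1 was lost without replicate 3 of the vector arrays (0.28, adjusted p = 0.09887) or EGF replicate 2 (0.23, 0.1537), with 0.001477 the lowest adjusted p of 19 alternatives. Without EGF replicate 2, GOT1 was also called in ERBB2 against EGF (0.33, adjusted p = 0.04067, the lowest of 19 alternatives, with 0.4703 the highest), where it otherwise was not (0.23, 0.1239). Of these 7 tested enzymes, 6 were higher in ERBB2 against vector (85.7%), 3 with EGF (42.9%) and 4 in ERBB2 against EGF (57.1%). None was lower in any. Of all genes, 20.8%, 17.2% and 12.8% were higher and 25.1%, 19.0% and 16.1% lower in the same order.

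The transporters moved in both directions. SLC7A11, the exchanger that brings in cystine for glutathione in return for glutamate, read 663, 604 and 539 on arrays labelled ERBB2, 214, 150 and 198 on EGF arrays, and 161, 146 and 144 on vector arrays. The arrays labelled ERBB2 were above all others, while EGF and vector arrays overlapped. The change was 1.89 ± 0.13 for ERBB2 against vector (limma adjusted p = 3.911e-10) and 1.61 ± 0.13 against EGF (1.476e-08). With EGF it was 0.28 ± 0.13 (0.1132), and it was called without EGF replicate 2 (0.42, adjusted p = 0.02056), with adjusted p between 0.01756 and 0.3769 over 19 alternatives. Its other 2 probe sets past the filter rose by 1.77 and 2.15 in arrays labelled ERBB2 against vector, and with EGF they gave -0.25 (not called) and 0.56 (adjusted p = 0.03536).

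SLC3A2, the chain that SLC7A11 and SLC7A5 both need to reach the cell surface, and SLC7A5, the exchanger of leucine and other large neutral amino acids, were lower in both groups. SLC7A5 averaged 4109 ± 59 on arrays labelled ERBB2, 3892 ± 217 on EGF arrays and 5702 ± 503 on vector arrays (SD, n = 3 each), a change of -0.47 ± 0.07 for ERBB2 (limma adjusted p = 2.15e-05) and -0.55 ± 0.07 for EGF (6.116e-06). SLC3A2 averaged 912 ± 58, 992 ± 94 and 1370 ± 138, with changes of -0.58 ± 0.09 (4.271e-05) and -0.46 ± 0.09 (0.0007764). Neither differed beyond the test between ERBB2 and EGF arrays (0.08 and -0.12).

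SLC7A1, the carrier of arginine and lysine, averaged 1418 ± 103 on arrays labelled ERBB2, 1178 ± 48 on EGF arrays and 835 ± 53 on vector arrays, and was called higher in ERBB2 against vector (0.75, limma adjusted p = 3.191e-07), EGF against vector (0.49, 0.0001159) and ERBB2 against EGF (0.26, 0.02424). The last call was lost without ERBB2 replicate 1 (0.21, adjusted p = 0.1021) or 3 (0.25, 0.06888), or EGF replicate 1 (0.25, 0.06902) or 2 (0.24, 0.08733), with adjusted p between 0.0003264 and 0.2299 over 19 alternatives. For ERBB2 against EGF, the dimmer SLC7A1 probe sets past the filter gave 1.13 (adjusted p = 0.0007543), 0.59 (0.0002771) and 0.64 (0.03225), all called. With the SLC7A1 probe sets averaged, the change of EGF against vector was 0.21 (adjusted p = 0.1511, the highest of 19 alternatives, with 5.928e-06 the lowest). SLC1A4, a carrier of serine, alanine and cysteine, averaged 65.0 ± 10.7, 30.6 ± 4.3 and 30.4 ± 10.7 and was higher in arrays labelled ERBB2 against vector (0.82, 0.005116) and EGF (0.79, 0.01148), the second lost without ERBB2 replicate 1 (0.70, adjusted p = 0.05388) or EGF replicate 3 (0.72, 0.05125), with 0.006012 the lowest of 19 alternatives. In these comparisons a dimmer SLC1A4 probe set gave 0.77 and 1.03, both called. Another gave 0.32 and -0.0021, neither called, and a further probe set gave 0.22, not called, and 0.94, called. SLC1A5, a carrier of glutamine and other neutral amino acids, averaged 311 ± 19, 362 ± 36 and 249 ± 52. It was higher with EGF (0.52, 0.003723), and in arrays labelled ERBB2 its change of 0.32 (0.05489) was called in 5 of 19 alternatives, among them without vector replicate 2 (0.47, adjusted p = 0.004233, the lowest, with 0.227 the highest).

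The sodium-coupled glutamine carriers differed from each other. SLC38A2, whose mRNA is known to rise when amino acids are withheld, averaged 3142 ± 126 on arrays labelled ERBB2, 5314 ± 233 on EGF arrays and 5347 ± 234 on vector arrays, and was lower in arrays labelled ERBB2 against vector (-0.76 ± 0.07, limma adjusted p = 1.052e-08) and EGF (-0.76 ± 0.07, 4.352e-08), with -0.0091 for EGF against vector, which was not called. Its other 2 probe sets changed by -0.55 and -0.64 in arrays labelled ERBB2 against vector, both called. SLC38A1 averaged 2101 ± 92, 2348 ± 251 and 1947 ± 58, and was called higher with EGF (0.26, 0.01581), a call lost without replicate 3 of the vector arrays (0.25, adjusted p = 0.06167) or EGF replicate 1 (0.19, 0.1026), with adjusted p between 0.0004656 and 0.1755 over 19 alternatives. It was not called in arrays labelled ERBB2 (0.11), though its 2 dimmer probe sets were (0.29 and 0.68). Over the 8 transporters, 3 were higher (37.5%) and 3 lower (37.5%) in ERBB2 against vector, where 20.8% and 25.1% of all genes were. With EGF 3 were higher (37.5%) and 2 lower (25%), where 17.2% and 19.0% of all genes were. In ERBB2 against EGF 3 were higher (37.5%) and 1 lower (12.5%), where 12.8% and 16.1% of all genes were.

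Members holding the C/EBP-ATF element printed above did not all change. In ERBB2 against vector, ASNS, GOT1, SLC1A4 and SLC7A1 were higher, SLC3A2 was lower, and CEBPG, CHAC1, SLC1A5 and SLC38A1 were not called. Of all genes tested, 20.8% were higher and 25.1% lower, and of the 33 members tested 48.5% were higher and 27.3% lower. TRIB3, STC2, PHGDH, PSAT1, MTHFD1, MTHFD2, ALDH18A1, GOT2 and CBS were called higher with no match of this element in their windows. Also with no match in their windows, CEBPB, DDIT3, DDIT4, SHMT1, SLC7A5 and SLC38A2 were lower, and ATF4, ATF5, SESN2 and CTH were not called. No match says only that these letters are not there.

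Genes of the same pathways outside the list were read from 4 further lists of 108 genes, of which 88 were tested. These lists too were chosen with earlier results of these data known, so their shares are descriptive. In ERBB2 against vector 37 were higher (42.05%) and 23 lower (26.1%), where 20.8% and 25.1% of all genes were. With EGF 31 were higher (35.2%) and 19 lower (21.6%), where 17.2% and 19.0% of all genes were. In ERBB2 against EGF 23 were higher (26.1%) and 16 lower (18.2%), where 12.8% and 16.1% of all genes were. The medians were 0.10, 0.10 and -0.01. The shares that were lower were thus near those of all genes.

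Of 17 genes for eIF2, its exchange factor eIF2B, the eIF2 kinases and their regulators, 8 were higher (47.1%) and 4 lower (23.5%) in ERBB2 against vector. With EGF 7 were higher (41.2%) and 2 lower (11.8%), and in ERBB2 against EGF 8 (47.1%) and 3 (17.65%). Of all genes, 20.8%, 17.2% and 12.8% were higher and 25.1%, 19.0% and 16.1% lower in the same order. EIF2S1, the eIF2 subunit that the kinases phosphorylate, rose by 1.19 ± 0.09 in arrays labelled ERBB2 (limma adjusted p = 1.279e-09) and by 1.10 with EGF, and EIF2B3, an eIF2B subunit, by 1.30 and 0.94. IMPACT, an inhibitor of GCN2, rose by 1.12 in arrays labelled ERBB2 against vector and by 0.81 against EGF. EIF2AK4, which is GCN2, fell by 0.55 on the log2 scale against vector and by 0.62 against EGF at its brightest probe set. With its probe sets averaged the first was 0.09 (adjusted p = 0.6065, the highest of 19 alternatives, with 0.0003444 the lowest), and the second was -0.29 (adjusted p = 0.09968, with 7.444e-05 the lowest). EIF2B4 fell by 0.49 and 0.60 in the same comparisons. GCN1, an activator of GCN2, rose by 0.51 with EGF, and EIF2AK1, the haem-regulated kinase, fell by 0.34, which was not called with equal array medians (-0.18, adjusted p = 0.1384, the highest of 19 alternatives, with 0.000823 the lowest). GCN1 was also called higher in ERBB2 against vector (0.28, limma adjusted p = 0.02895), a call lost in 7 of 19 alternatives. PPP1R15A, a phosphatase subunit that reverses eIF2 phosphorylation, changed by -0.56 for ERBB2 and -0.59 for EGF against vector. Both calls were lost without vector replicate 2 (adjusted p = 0.1708 and 0.1623) or 3 (0.05698 and 0.05914), the first also without ERBB2 replicate 3 (0.1345) and the second without EGF replicate 2 (0.06365) or 3 (0.137), with 0.02266 and 0.001423 the lowest adjusted p over 19 alternatives. The ERBB2 call of PPP1R15A was also lost with no filter, with quantile normalization and with equal array medians. PPP1R15B, its constitutive relative, was higher in ERBB2 against EGF by 0.41 and DNAJC3, an inhibitor of PERK, lower by -0.75. The DNAJC3 value was -0.13 with its probe sets averaged (adjusted p = 0.4045, the highest of 19 alternatives, with 1.663e-06 the lowest). EIF2S3 was higher there by 0.46, which was lost without ERBB2 replicate 1 (0.34, adjusted p = 0.1834) or 2 (0.47, 0.07579) or EGF replicate 1 (0.27, 0.2429), with 0.01134 the lowest over 19 alternatives.

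Of 21 tested genes among further ATF4-linked genes, 10 were higher (47.6%) and 7 lower (33.3%) in ERBB2 against vector. With EGF 7 were higher (33.3%) and 7 lower (33.3%), and in ERBB2 against EGF 6 (28.6%) and 5 (23.8%). Of all genes, 20.8%, 17.2% and 12.8% were higher and 25.1%, 19.0% and 16.1% lower in the same order. EIF4EBP1, the translation repressor 4E-BP1, read 1214, 1028 and 936 on arrays labelled ERBB2, 426, 527 and 504 on EGF arrays, and 164, 182 and 157 on vector arrays, with changes of 2.55 ± 0.11 for ERBB2 (limma adjusted p = 7.158e-13) and 1.45 ± 0.11 for EGF (6.429e-09). The glycine transporter SLC6A9 and the mitochondrial folate enzyme ALDH1L2 were higher in arrays labelled ERBB2 by 1.18 and 1.10. NFIL3, a bZIP repressor, fell by 2.35 on the log2 scale in arrays labelled ERBB2, the stress hormone GDF15 by 1.17 and the autophagy receptor SQSTM1 by 0.99. With EGF, VEGFA rose by 1.84 and the chaperone HSPA5 by 1.12, while SQSTM1 fell by 1.53, NFIL3 by 1.42 and HMOX1, haem oxygenase, by 1.18. VEGFA and HSPA5 were also higher in ERBB2 against vector, by 0.71 (limma adjusted p = 1.106e-06) and 0.59 (8.154e-07). In ERBB2 against EGF, HMOX1 was higher by 1.28, EIF4EBP1 by 1.10 and PCK2 by 1.09, and VEGFA was lower by -1.13, NFIL3 by -0.93 and HSPA5 by -0.53. SLC6A9 on vector arrays and HMOX1 on EGF arrays averaged below the filter value (10.04 and 8.74), so the size of their changes depends on the pseudocount. With a pseudocount of 1 the change of SLC6A9 in ERBB2 against vector was 2.18, and with 64 it was 0.52. For HMOX1 in EGF against vector the values were -2.26 and -0.50, and in ERBB2 against EGF 2.38 and 0.57.

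Of 24 tested further enzymes of amino acid and folate metabolism, 10 were higher (41.7%) and 7 lower (29.2%) in ERBB2 against vector. With EGF 8 were higher (33.3%) and 7 lower (29.2%), and in ERBB2 against EGF 6 (25%) and 5 (20.8%). Of all genes, 20.8%, 17.2% and 12.8% were higher and 25.1%, 19.0% and 16.1% lower in the same order. GLUL, glutamine synthetase, read 714, 681 and 711 on arrays labelled ERBB2, 5987, 5541 and 5340 on EGF arrays, and 10090, 11350 and 10020 on vector arrays. Its change was -3.87 ± 0.07 for ERBB2 against vector (limma adjusted p = 1.528e-18), -0.90 ± 0.07 for EGF against vector (8.363e-09) and -2.97 ± 0.07 for ERBB2 against EGF (2.314e-16). GLUD1, glutamate dehydrogenase, changed by -2.16, -1.05 and -1.11 in the same comparisons, and PRODH, which degrades proline, by -1.91, -1.01 and -0.89. PRODH averaged 6.34 on arrays labelled ERBB2, below the filter value, and its change there against vector was -3.34 with a pseudocount of 1 and -0.90 with 64. The last PRODH call was lost without EGF replicate 2 (-0.69, adjusted p = 0.08626, the highest of 18 alternatives, with 0.004987 the lowest). TYMS, thymidylate synthase, was higher by 2.15 in ERBB2 against vector and 1.75 against EGF. The proline enzyme PYCR3 was called higher for ERBB2 and EGF, at means of 56.5 and 58.8, against 2.35 on vector arrays. As the vector signal was below the filter value, the size of its change was set by the pseudocount: 1.98 and 2.03 with 16, 4.23 and 4.29 with 1, and 0.86 and 0.89 with 64. The polyamine enzyme ODC1 rose by 1.54 and 1.25. Spermidine synthase SRM rose by 1.27 in ERBB2 against vector and by 1.09 with EGF. GCLM, of glutathione synthesis, and MAT2A, which makes S-adenosylmethionine, were higher in ERBB2 against EGF by 1.42 and 0.84.

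Of 26 tested further transporters, 9 were higher (34.6%) and 5 lower (19.2%) in ERBB2 against vector, where 20.8% and 25.1% of all genes were. With EGF 9 were higher (34.6%) and 3 lower (11.5%), where 17.2% and 19.0% of all genes were. In ERBB2 against EGF 3 were higher and 3 lower. In the last comparison that is 11.5% either way, below the 12.8% and 16.1% of all genes. The mitochondrial ornithine carrier SLC25A15 rose by 1.91 for ERBB2 and 1.61 for EGF, and the aspartate-glutamate carrier SLC25A13 by 1.40 and 1.43. SLC43A3 rose by 1.70 in arrays labelled ERBB2 against vector and by 0.69 against EGF, and SLC25A32, the mitochondrial folate carrier, rose by 1.68 with EGF. SLC25A32 averaged 876 on arrays labelled ERBB2, 1134 on EGF arrays and 344 on vector arrays. SLC36A4 was higher in ERBB2 against EGF by 1.08, and SLC25A32 lower by -0.37. The taurine carrier SLC6A6 was higher there by 0.39, which was lost without ERBB2 replicate 3 (0.35, adjusted p = 0.06318) or EGF replicate 2 (0.27, 0.112), with 0.002464 the lowest of 19 alternatives. The cationic carrier SLC7A2 fell by 2.06 on the log2 scale for ERBB2 against vector, by 0.98 for EGF and by 1.08 in ERBB2 against EGF. SLC25A12 changed by -0.76 for ERBB2 against vector and by -0.59 against EGF. SLC7A7 changed by -0.81 in arrays labelled ERBB2, lost without vector replicate 2 (-0.68, adjusted p = 0.1165) or 3 (-0.83, 0.06064) or ERBB2 replicate 1 (-0.56, 0.1388), with 0.02108 the lowest of 18 alternatives. With EGF, SLC43A2 changed by -0.81, and SLC7A8 by -0.70, and that SLC7A8 call was lost without vector replicate 2 (-0.52, adjusted p = 0.1366) or 3 (-0.69, 0.06199) or EGF replicate 3 (-0.61, 0.09101), with 0.008612 the lowest of 19 alternatives. SLC43A2 also changed by -0.56 in ERBB2 against vector (limma adjusted p = 0.03634). That call was lost without vector replicate 2 (adjusted p = 0.162) or 3 (0.05608), or without any ERBB2 replicate (0.05883, 0.1004 and 0.05493).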

How the data were processed

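RNA of MCF10A cells was measured on 9 one-colour Affymetrix arrays of 54675 probe sets, 3 per group. The deposited values are linear signal intensities. The submitters' processing notes name MAS5 as the authors' software, with no version or settings. The mean of each array after trimming 2% at each end was 100, so the arrays stand on 1 scale set by the authors. Detection calls were not used here. By the platform table, 41091 probe sets had 1 gene symbol, 1801 had several and 11721 had none; 62 control probe sets were left out. The 35 members had 70 single-gene probe sets, 61 past the filter.

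Values were analysed as log2(signal + 16), which understates fold changes of dim genes. The filter dropped the dimmest 40% of probe sets by mean log2 value (signal 10.6) and left 32768. Tests used limma 3.58.1 (lmFit, eBayes with a trend) in R 4.3.3, in 1 model of 9 arrays with 6 residual degrees of freedom. P-values were adjusted by the Benjamini-Hochberg method over all 32768 probe sets and called under 0.05; a parenthesis with a change and a second number gives that adjusted p. An exact test of 3 against 3 arrays cannot go below 0.1. The script was tested on simulated data. Titles of the samples gave group and replicate number. Deviations of same-numbered arrays did not move together (r from -0.0302 to 0.0191), so no pairing was used. Precision is limited by how few arrays there are.

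The members, the lists of other genes and the alternatives were chosen with earlier results of these data known. Values per array were given for members with a called change of at least 2-fold and for ATF4 and CHAC1, and of each further list up to 3 called genes per direction and comparison with the largest change were named; ERBB2, EGFR and DUSP6 served as a check. The alternatives were pseudocounts of 1 and 64, no filter or a filter at the 60th percentile, equal medians or quantiles across arrays, no variance trend, a fit of 2 groups alone, a replicate block, averaging a gene's probe sets, and leaving out each array in turn.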

Additional observations from a re-analysis of the deposited data

Results flagged for a closer look

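PHGDH, the first enzyme of serine synthesis, was the only member called in opposite directions against vector, higher in arrays labelled ERBB2 (log2 change 1.60, limma adjusted p = 5.001e-09) and lower with EGF (-0.46, limma adjusted p = 0.0101). The direct difference between ERBB2 and EGF arrays was 2.07 (limma adjusted p = 5.205e-10), with 3 of 3 arrays labelled ERBB2 above all EGF arrays. The fall with EGF was not called with equal array medians (-0.30, limma adjusted p = 0.1075, the highest of 19 alternatives), so the call with EGF depends on the scaling, while the direct difference was called in all 19. The ACTB 5' to 3' ratio differs along with the ERBB2 group, at 0.737 against 0.444 on EGF arrays and 0.379 on vector arrays, and its part in the result was not tested.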

How the results depend on the processing

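Across 19 alternatives, no change of a member that was called reversed. Counted over members, comparisons and alternatives, 1769 values kept their side of the threshold, 76 lost a call and 30 gained one. In ERBB2 against vector 15 to 18 members were higher and 6 to 9 lower; with EGF 7 to 13 and 5 to 8; in ERBB2 against EGF 10 to 16 and 3 to 7. With equal array medians, 7 members were lower and 10 higher in ERBB2 against EGF (main: 3 and 15). That scaling moved the median change of all probe sets with EGF to 0.05 from -0.11, and the share of calls that were higher to 67.5% from 44.8% with EGF and to 31.8% from 48.8% in ERBB2 against EGF. Averaging all probe sets of a gene gave 5998, 4764 and 3458 calls, counted over genes, against 12689, 9445 and 7793 over probe sets. With that averaging, ERBB2 (0.0934, limma adjusted p = 0.6686) and EIF2AK4 (0.0869, 0.6065) in ERBB2 against vector took the opposite sign but were not called. DNAJC3 with EGF likewise went to -0.0035 (limma adjusted p = 0.9838). The replicate number as a block, tried because the groups share numbers, gave 17 higher and 8 lower members in ERBB2 against vector, 11 and 6 with EGF, and 15 and 3 in ERBB2 against EGF, with 12551, 9312 and 7618 probe sets called. Causes of these differences were not tested, and where genes replaced probe sets the calls were counted over fewer features. Dim genes such as CHAC1 and SHMT1 lie near the filter and MTHFD1L lies below it, and their values are the least certain.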
